A study of Mus musculus with 24 samples.

Results

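Replication-dependent histone genes encode the core histones H2A, H2B, H3 and H4 and the linker histone H1 that package newly made DNA. All genes of the deposited table with the biotype protein_coding and a symbol beginning with Hist1h, Hist2h, Hist3h or Hist4h were taken, which gave 67 of 54532 genes. They comprised 6 H1, 18 H2A, 18 H2B, 12 H3 and 13 H4 genes. The Hist1 cluster on chromosome 13 held 54 of them (GRCm38 positions 21715763 to 23934851), the Hist2 cluster on chromosome 3 held 10 (96219865 to 96270132), the Hist3 cluster on chromosome 11 held 2 (58948920 to 58956830), and the single Hist4 gene lay on chromosome 6 (136801553 to 136804415).

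Poly(A) RNA was sequenced from macrophages (BMDMs) and dendritic cells (BMDCs) grown from the bone marrow of Tmem173 fl/fl mice, either without (WT) or with (CRE) a tamoxifen-inducible Lyz2-Cre ert2 transgene. Tmem173 encodes the innate immune sensor STING, and the Lyz2 promoter drives the recombinase in myeloid cells. Cells of each genotype label were left as control or exposed to DMXAA (Vadimezan), an agonist of mouse STING, so that the 8 groups of 3 libraries asked how the response depended on cell type and genotype. The series states a dose of 40 µM, whereas the methods give DMXAA doses as mass per volume, so the dose is uncertain. The WT and CRE mice all carried the floxed allele. The methods describe tamoxifen injection of both genotypes for the study in general, and do not state it for the donors of these cultures. BMDMs were grown with L929-conditioned medium, and BMDCs with GM-CSF and IL-4. The methods give age windows at tamoxifen injection for the mice of the study in general, without saying which applied to the donors of these cultures. The labels did not say whether libraries of a group came from separate animals, so the p-values measure the spread between libraries, which may be technical.

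Several libraries stood apart from their labels. Total counts ranged from 15657347 to 18912887 per library. The 4 BMDM libraries numbered 3 summed 19.6 to 33.1 FPKM (fragments scaled to gene length and library size, a level per length) over 10 macrophage markers, against 6890 to 13977 in the other 8 BMDM libraries, and 1608 to 2403 FPKM over 10 fibroblast markers, against 9.55 to 121. They are shown apart below, which left 2 libraries in each BMDM group. Among the 6 most similar library pairs of the series, 4 joined a WT-labelled with a CRE-labelled BMDC library of the same treatment, and the Tmem173 ranges of both labels overlapped in control BMDCs (28.8 to 51.6 FPKM in WT, 19.7 to 36.8 in CRE) and in control BMDMs (9.91 to 14.7 and 8.76 to 10.4). Under DMXAA they overlapped in BMDCs (34.6 to 55.3 and 24.3 to 35.1) but not in BMDMs (22.8 to 31.8 and 9.12 to 10.1). Dendritic cell markers summed 3389 to 8137 FPKM in BMDCs and 87.3 to 197 in BMDMs numbered 1 and 2.

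Most replication-dependent histone mRNAs end in a conserved stem-loop bound by the stem-loop binding protein instead of a poly(A) tail, and their level peaks in S phase with DNA replication. Some histone genes can also use a polyadenylation signal downstream of the stem-loop, and such tailed transcripts are known from differentiated, non-dividing cells. Selection of poly(A) RNA therefore captures the tailed transcripts and only a small part of the tailless ones. In bulk RNA, a smaller share of cells of a kind and less RNA per cell cannot be told apart.

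The stem-loop windows of 5 abundant members show the element that the class shares. They are written 5′ to 3′ from GENCODE M21 (GRCm38) transcripts with the stem-loop in capitals.
Hist1h1c: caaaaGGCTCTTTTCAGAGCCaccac
Hist3h2a: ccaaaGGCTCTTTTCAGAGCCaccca
Hist2h3c2: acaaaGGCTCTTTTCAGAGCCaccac
Hist1h4h: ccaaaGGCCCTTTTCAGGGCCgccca
Hist1h4i: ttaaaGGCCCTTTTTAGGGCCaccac
The stem sequence was the same in the H1, H2A and H3 genes shown, whereas both H4 genes had another stem, and Hist1h4i had its own loop. Read on the transcript strand, the pattern of GG, any 2 bases, CTTTT, any base, AG, any base and GCC was present in 42 of the 67 members and in 0.0102% of 58725 other protein-coding transcripts. It was not found in the annotated transcripts of Hist1h2bc and Hist2h2be. The annotated transcript ran on past the stem-loop for 840 bases in Hist1h1c, 1643 in Hist3h2a, 377 in Hist2h3c2 and 330 in Hist1h4i, but for only 46 bases in Hist1h4h.

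A polyadenylation hexamer, AATAAA or ATTAAA, lay within the last 50 bases of the transcript in 16 of the 67 members, against 50.2% of other protein-coding transcripts. The windows of 4 members that the results turn on are shown, with the hexamer in capitals.
Hist1h1c: gtatgcttctAATAAAaagcgtttag
Hist3h2a: gtatatgcccAATAAAataagagtac
Hist2h2be: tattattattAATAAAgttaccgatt
Hist1h4i: ttctgtttacATTAAAagtattctat
The 16 members with a hexamer had a median mean level of 0.391 FPKM over the 20 libraries other than BMDM number 3, and the 51 without one had 0.135 FPKM. Among the 8 members with a mean of at least 1 FPKM, 5 had a hexamer and 3 did not, and Hist1h2bc, the second most abundant, had none. No test was made on this split, which is a description of the annotated ends. Annotated transcripts were as short as 312 bases in Hist1h4k and 381 in Hist1h2bl, and sequence beyond an annotated end was not searched. A hexamer or stem-loop not found is therefore not shown to be absent from the gene.

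Most members were scarcely detected. Over the 20 libraries the median of the members' mean levels was 0.140 FPKM, 29 members averaged under 0.1 FPKM, and 42 never reached 1 FPKM. Hist1h2aa, Hist1h2ba, Hist1h4b, Hist2h2aa1, Hist2h2aa2, Hist2h2ab, Hist2h2bb, Hist2h3b and Hist2h3c1 had 0 counts in all 24 libraries. The members together took 0.0358% to 0.0723% of counts in BMDCs, 0.00441% to 0.0328% in BMDMs numbered 1 and 2, and 0.0124% to 0.0129% in BMDM number 3. The heat map of members by library shows that this signal came mainly from Hist1h1c and Hist1h2bc. These genes together made up 83.4% to 93.3% of the summed member FPKM in BMDCs, 47.8% to 85.3% in BMDMs numbered 1 and 2, and 53.4% to 58.8% in BMDM number 3. Small RNA biotypes without a poly(A) tail (snRNA, snoRNA and scaRNA) took 0.00115% to 0.00531% of counts, and the part of RNA selection in the histone levels was not tested.

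**Figure D1:**
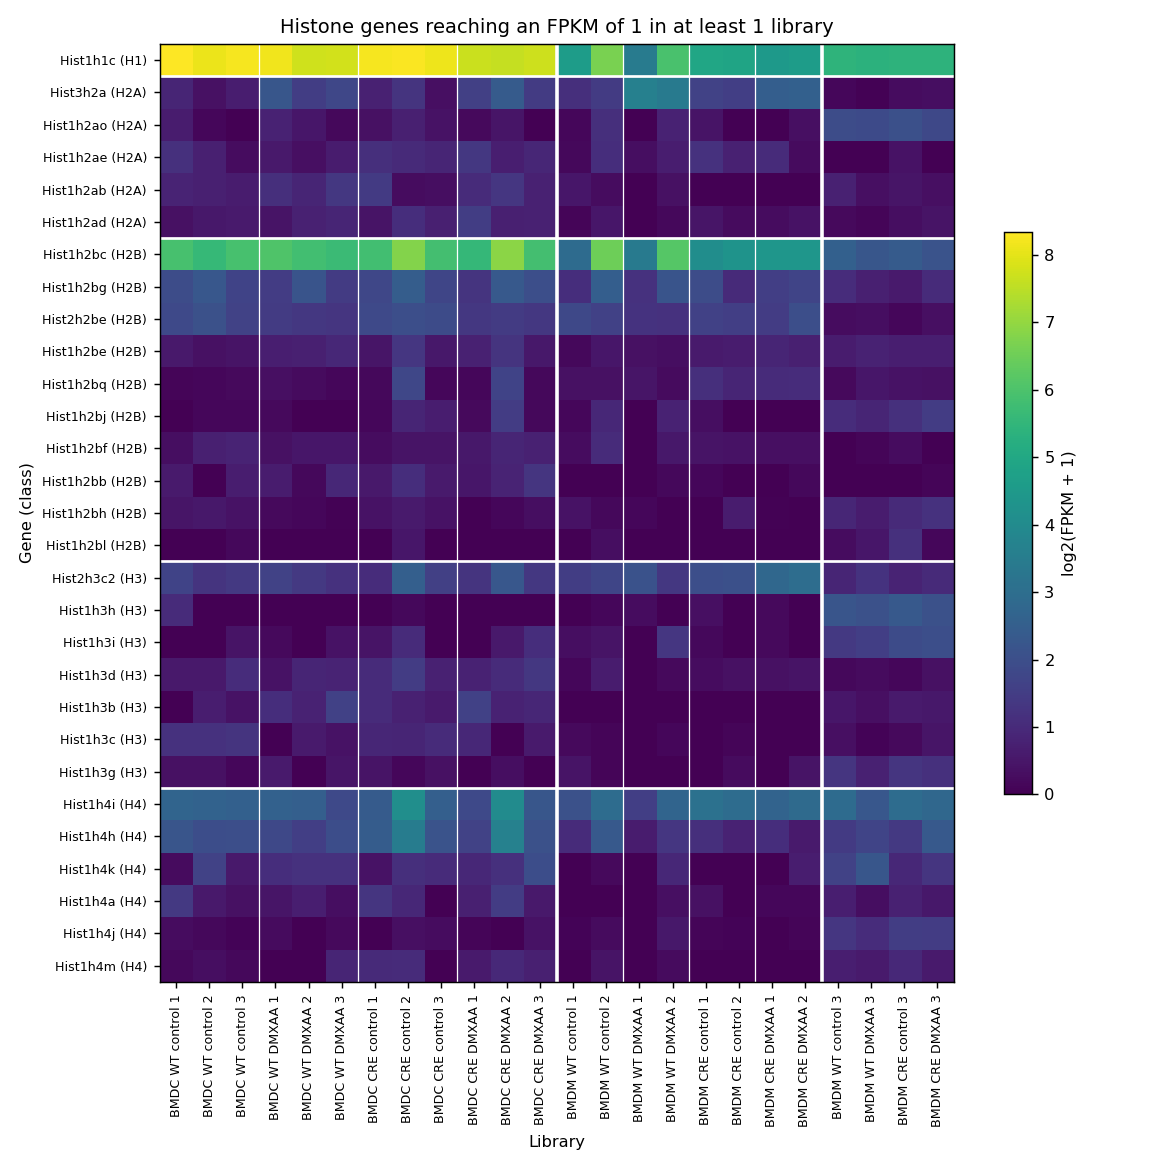
Level of the 29 histone genes that reached 1 FPKM in at least 1 library, as log2(FPKM + 1) by colour, with genes in lines by class and libraries in columns by cell type, genotype label and treatment, BMDM number 3 on the right. Hist1h1c and Hist1h2bc are the brightest lines in all BMDC libraries, and the lines of Hist1h3h, Hist1h3i and Hist1h2ao are brighter in BMDM number 3 than in the other libraries.

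Among the H1 genes, only Hist1h1c, a linker histone gene (chromosome 13, 23738808 to 23740367), was abundant, with a mean of 171 FPKM over the 20 libraries. In BMDC controls it measured 325, 274 and 302 FPKM with the WT label and 299, 313 and 281 with the CRE label. In BMDMs numbered 1 and 2 it measured 23.3 and 100 FPKM in WT controls and 29.5 and 28.0 in CRE controls. Every BMDC control was above every BMDM control, and WT number 2 stood out among the BMDMs. The next H1 genes, Hist1h1e and Hist1h1d, averaged 0.173 and 0.14 FPKM, and the median of the class was 0.124 FPKM.

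The H2A class had the lowest median, 0.0292 FPKM, and 4 of its 18 genes were at 0 counts in all libraries. Its most abundant member was Hist3h2a (chromosome 11, 58954685 to 58956830), with a mean of 2.89 FPKM. Hist1h2ae and Hist1h2ab followed at 0.738 and 0.59 FPKM.

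The H2B class had the highest median, 0.252 FPKM, and 3 members above 1 FPKM on average. Hist1h2bc (chromosome 13, 23684199 to 23692908) averaged 51.7 FPKM. In BMDC controls it measured 59.7, 47.7 and 59.0 FPKM with the WT label and 55.2, 109 and 56.3 with the CRE label, so CRE number 2 was the one high library. In BMDM controls it measured 6.57 and 90.6 FPKM in WT and 15.9 and 18.7 in CRE, and the WT libraries spanned the whole range of the CRE libraries. Hist1h2bg averaged 2.61 FPKM and Hist2h2be (chromosome 3, 96221119 to 96223738) 2.09 FPKM.

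In the H3 class, Hist2h3c2 (chromosome 3, 96238108 to 96239127) led with a mean of 2.64 FPKM, and Hist1h3d and Hist1h3b averaged 0.643 and 0.534 FPKM. Hist1h3b was at 0 in all 8 BMDM libraries numbered 1 and 2 and reached at most 2.08 FPKM in BMDCs. In the H4 class, Hist1h4i (chromosome 13, 22040636 to 22041362) averaged 5.92 FPKM, Hist1h4h 3.14 and Hist1h4k 0.786. The class medians were 0.212 FPKM for H3 and 0.135 for H4.

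**Figure D2:**
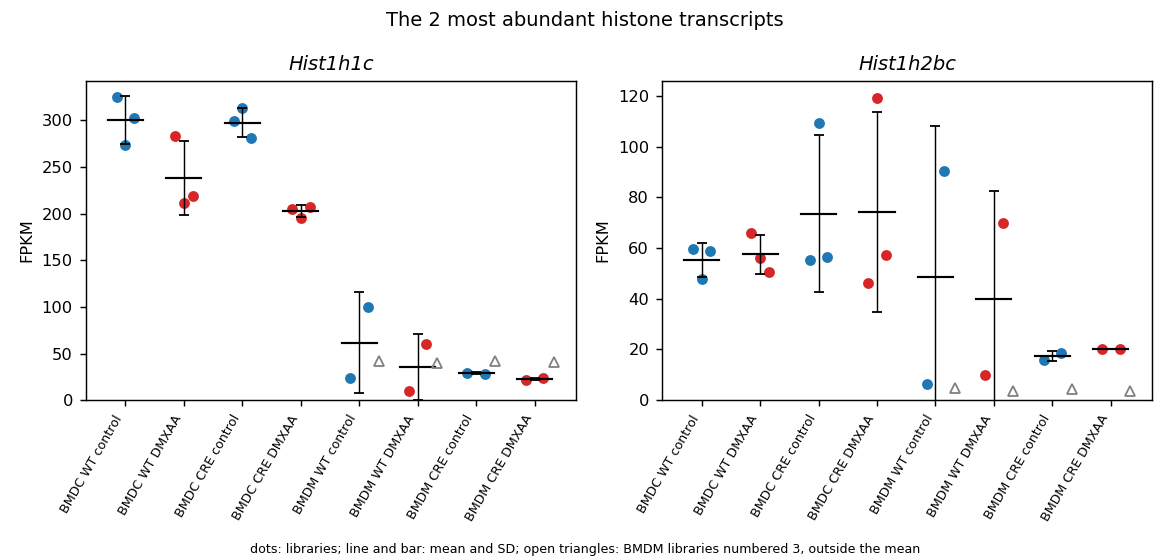
FPKM of Hist1h1c and Hist1h2bc in each library (dots) with the mean and SD of each group, and BMDM number 3 as open triangles outside the mean. All BMDC libraries of Hist1h1c lie between 195 and 325 FPKM and all BMDM libraries at 100 FPKM or below, whereas for Hist1h2bc BMDC CRE number 2 and BMDM WT number 2 stand above the other libraries of their groups.

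Many members share sequence, which limits how reads can be assigned to one of them. In 28 members more than 50% of all 100-base stretches of the transcript also occurred in another gene, and these had a median mean level of 0.0446 FPKM and included 7 of the 9 genes at 0 counts. By class, the median share of such stretches was 0.396% in H1, 69.9% in H2A, 37.4% in H2B, 49.7% in H3 and 19.0% in H4. Of the 9 genes at 0 counts, 5 had every 100-base stretch in another gene. In the same 5, other annotated genes, on either strand, overlapped 100% of the exon bases. That overlap was 68.2% in Hist2h2ab, 56.2% in Hist1h4b, 33.1% in Hist1h2aa and 0% in Hist1h2ba. The shares of stretches include such overlapping genes. How multi-mapped reads, overlapping genes and strand were counted was not given. A count of 0 in genes with shared or overlapped sequence is therefore not a measure of their transcription. The leading members were less affected, with 5.07% shared in Hist1h1c, 25.4% in Hist1h2bc and 0% in Hist2h2be. Hist2h3c2 shared 61.6%, partly with Gm20634, which had at most 3 counts in any library, and Hist1h2bq shared 94.6%, mainly with Hist1h2br, so both are uncertain. Hist3h2a shared 29.8%, and 33% of its exon bases overlapped Trim17 or Gm44313; Trim17 had at most 17 counts in any library and Gm44313 had 0.

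The promoters were compared for 60 members with a RefSeq start (GRCm38.p6). Within 250 bases upstream, on either strand, CCAAT was present in 81.7% of the members, against 33.8% of 32851 promoters of all genes. TATAAA was present in 46.7% and 12.4%. GAAA repeated after any 2 bases, as in interferon-stimulated response elements, was present in 1.67% of members and 2.98% of all, and GGG followed after any 2 bases by TTTCC, as in NF-κB sites, in 1.67% and 1.41%. The CCAAT boxes of 2 members whose levels differed under DMXAA are shown in capitals on the gene's strand, at chr13:23738743-23738767 (+) and chr11:58954607-58954631 (+).
Hist1h1c: cgctggagcaCCAATcagcgcgcgc
Hist3h2a: ttgttggcatCCAATaggaaggtgc
They lie 54 and 68 bases before the RefSeq starts.

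The histone signal was higher in BMDCs than in BMDMs, mainly in Hist1h1c. Summed over the members, control BMDCs reached 384 ± 32.7 FPKM (SD, n = 3) with the WT label and 412 ± 65.6 with the CRE label, against 135 ± 126 (n = 2) and 69.2 ± 2.11 in BMDMs. With the edgeR quasi-likelihood test across all genes, 3 of 20 tested members were higher in WT control BMDCs than in BMDMs and 0 lower, where 13.1% of all 13368 genes tested were higher and 15.4% lower (28.5% in all). In CRE controls 5 were higher and 0 lower, beside 14% and 13.4% of all genes (27.4%). The median log2 difference of the 20 members was 0.32 in WT and 2.11 in CRE, against -0.02 and 0.02 over all genes. Only members above the level filter were tested, and a member that passed through BMDCs alone had to be higher there. Among the called members this held for Hist1h3c, Hist1h4a, Hist1h2ab and Hist1h3b, whose direction is therefore not a result.

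Hist1h1c was higher in BMDCs under both labels, by a log2 difference of 2.22 ± 0.58 (SE) in WT (adjusted p = 0.00867, edgeR) and 3.35 ± 0.61 in CRE (adjusted p = 0.000679). Without BMDM WT control number 1 the WT difference was 1.54 and its adjusted p was 0.0877. Hist1h2bc gave 0.13 in WT and 2.06 ± 0.84 in CRE (adjusted p = 0.0822), and neither passed. With both BMDM WT libraries numbered 2 left out, a choice made after their values were seen, Hist1h2bc gave 3.01 in WT. That fit held 1 BMDM WT control library, so no test is given. Hist3h2a had the opposite sign, -1.42 in WT and -1.39 in CRE, without passing (adjusted p = 0.0618 and 0.0644).

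The other members that passed had few counts in BMDMs. In WT controls, Hist1h3c measured 1.28, 1.29 and 1.37 FPKM in BMDCs and 0.155 and 0.0752 in BMDMs (adjusted p = 0.0403, edgeR). Hist1h4a measured 1.60, 0.472 and 0.283 FPKM in BMDCs and was listed at 0 in both BMDMs (adjusted p = 0.0434). The groups did not overlap for either gene, which held for 53.3% of all genes. In CRE controls, Hist1h4h measured 4.37, 10.4 and 3.41 FPKM in BMDCs and 1.19 and 0.751 in BMDMs (adjusted p = 0.0239), and groups did not overlap for 11 of 20 members and 57.2% of all genes. Hist1h2ab, Hist1h3b and Hist1h3c also passed, with adjusted p = 0.0177, 0.0191 and 0.0344, and BMDM controls at no more than 0.0800 FPKM. Each of these calls was lost without either BMDM control library, with adjusted p from 0.124 to 0.180 for Hist1h3c in WT, from 0.155 to 0.162 for Hist1h4a, from 0.0972 to 0.183 for Hist1h4h, and from 0.0960 to 0.219 for the others. Leaving out single BMDC controls also ended calls. Hist1h4h was lost without CRE number 2 (log2 difference 1.98 in place of 2.60, adjusted p = 0.0793) and Hist1h2ab without CRE number 1 (3.97 in place of 5.56, 0.0691). Hist1h3c was lost in WT without any one BMDC control (0.0642 to 0.0700) and in CRE without number 1 or 3 (0.0530 and 0.0606), and Hist1h4a without WT number 1 or 2 (0.123 and 0.0537).

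In BMDCs the DMXAA response could be tested in 15 histone genes. Simulated 2-fold changes were mostly missed by this fit, so absent calls do not show that members were unchanged. In WT-labelled BMDCs, 1 of 15 tested members rose and 1 fell, while 17% of all 12126 genes tested rose and 15.2% fell (32.2% in all). In CRE-labelled BMDCs, 1 rose and 2 fell, while 14% of all genes rose and 11.4% fell (25.4%). The median log2 change of the 15 members was -0.35 in WT and -0.11 in CRE, against 0.01 and -0.01 over all genes. With only the compared groups in the fit, 0 members passed in CRE, and 2 in WT.

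Hist3h2a, an H2A gene of the Hist3 cluster, was called higher under DMXAA in BMDCs. CRE number 2 was the only BMDC control at 1 FPKM or more, so the gene met the level filter only through treated libraries. Its direction in BMDCs is therefore not a result by itself. In WT Hist3h2a measured 0.804, 0.285 and 0.593 FPKM in controls and 3.68, 1.87 and 2.44 under DMXAA. In CRE it measured 0.684, 1.41 and 0.274 FPKM in controls and 1.97, 4.32 and 1.75 under DMXAA. Treated and control libraries did not overlap under either label, as was the case for 49% of all genes in WT and 34.6% in CRE. The log2 change was 2.21 ± 0.59 in WT (adjusted p = 0.0145, edgeR) and 1.74 ± 0.58 in CRE (adjusted p = 0.0476). The WT call rested on 12 to 32 counts per control library and was lost without WT control number 2 (log2 change 1.90, adjusted p = 0.0595). The CRE call was lost without control number 1 or 3 or without any one of the 3 treated libraries, with log2 changes of 1.22 to 1.97 and adjusted p from 0.0532 to 0.15.

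Hist2h2be, an H2B gene of the Hist2 cluster, fell in BMDCs. In WT it measured 2.55, 3.17 and 2.10 FPKM in controls and 1.73, 1.53 and 1.44 under DMXAA. In CRE it measured 2.56, 3.01 and 2.76 FPKM in controls and 1.56, 1.74 and 1.56 under DMXAA. Every treated library was below every control library of its label. The log2 change was -0.76 ± 0.21 in WT (adjusted p = 0.0172, edgeR) and -0.80 ± 0.21 in CRE (adjusted p = 0.0162). The WT call was lost without control number 2 (-0.59, adjusted p = 0.0899), treated number 2 (-0.74, 0.0541) or treated number 3 (-0.71, 0.0606), and the CRE call without treated number 3 (-0.77, 0.0566).

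**Figure D3:**
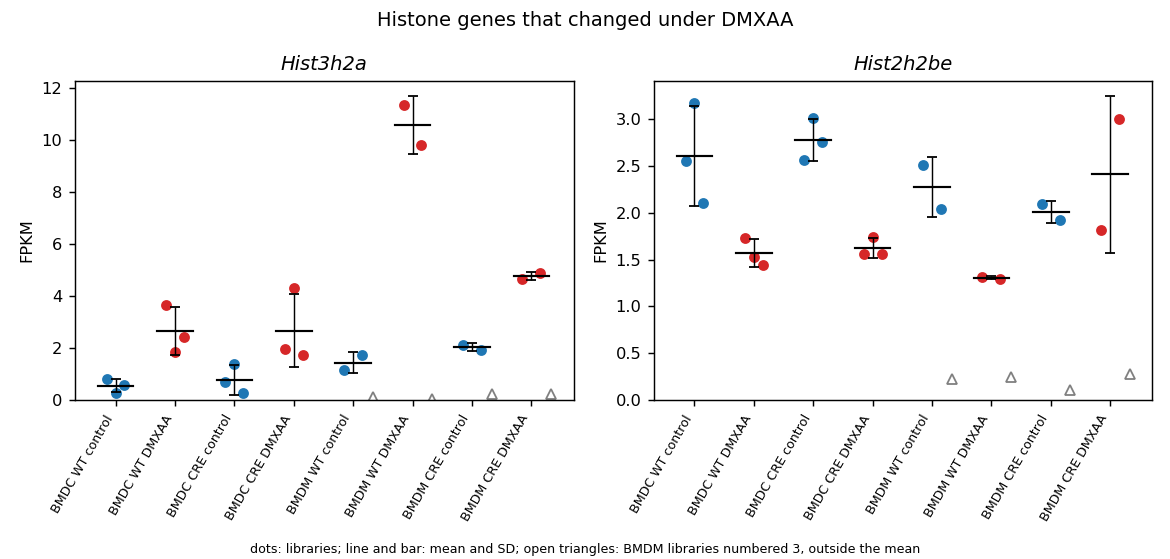
FPKM of Hist3h2a and Hist2h2be in each library (dots; blue control, red DMXAA) with the mean and SD of each group, and BMDM number 3 as open triangles outside the mean. Hist3h2a is higher under DMXAA in all 4 pairs of groups, most in BMDM WT (11.4 and 9.81 against 1.16 and 1.72 FPKM), and Hist2h2be is lower in all but BMDM CRE.

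Hist1h1c fell under DMXAA in CRE-labelled BMDCs, from 299, 313 and 281 FPKM to 205, 195 and 207, a log2 change of -0.58 ± 0.14 (adjusted p = 0.00974, edgeR). In WT-labelled BMDCs it measured 325, 274 and 302 FPKM in controls and 284, 212 and 219 under DMXAA, with overlapping groups and a log2 change of -0.36 ± 0.14 that did not pass (adjusted p = 0.0662). With same-numbered libraries of a label taken as pairs, the WT change was -0.37 ± 0.11 (adjusted p = 0.0164), and Hist1h3b passed as well (2.05 ± 0.75, adjusted p = 0.0454), so that 4 members passed. Hist1h3b met the level filter only with treated libraries counted, so its direction is not a result. Hist1h2bc gave 0.03 in WT and -0.01 in CRE and did not pass. Hist1h3c, with 3 to 17 counts in those WT libraries that had any, measured 1.28, 1.29 and 1.37 FPKM in WT controls and 0, 0.521 and 0.316 under DMXAA without passing (adjusted p = 0.0911). The interaction of label and DMXAA passed for 0 of 15 members and 0% of all genes, with 0 members and 60 genes at an unadjusted p under 0.05.

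The BMDC CRE libraries numbered 2 stood apart in several members. Hist1h4i measured 16.4 FPKM in the control and 15.4 under DMXAA, against 2.55 to 5.49 in the other 10 BMDC libraries. Hist1h4h measured 10.4 and 11.6 FPKM against 1.96 to 4.37, and Hist1h2bq 2.44 and 2.17 against 0.0803 to 0.277. Both libraries thus held the highest levels of these genes among BMDCs. In the same libraries 7 neutrophil markers summed 553 and 299 FPKM, against 18.5 to 42.4 elsewhere in BMDCs, 6 marrow progenitor markers summed 32.6 to 35.2 against 4.22 to 21.2, and 10 macrophage markers 1338 and 1560 against 4488 to 6316. Their part in the histone levels was not tested. Without this pair, left out after its values were seen, the 3 members called in CRE-labelled BMDCs still passed. Their log2 changes were -0.52 for Hist1h1c, -0.79 for Hist2h2be and 1.92 for Hist3h2a (adjusted p = 0.0395, 0.0442 and 0.0245, edgeR).

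In BMDMs, 1 of 10 tested members rose under DMXAA with either label and 0 fell. Of all 11569 genes tested, 18.4% rose and 20.7% fell in WT (39.2% in all), and 7.28% rose and 2.72% fell in CRE (10%). The median log2 change of the 10 members was -0.45 in WT and 0.11 in CRE, against -0.08 and -0.01 over all genes. The member that rose was Hist3h2a under both labels. It measured 1.16 and 1.72 FPKM in WT controls and 11.4 and 9.81 under DMXAA, and 2.14 and 1.93 in CRE controls and 4.65 and 4.88 under DMXAA. Treated libraries were above controls in both, as for 62.5% of all genes in WT and 76.7% in CRE, where groups did not overlap in either direction. The log2 change was 2.76 ± 0.25 in WT (adjusted p = 0.000374, edgeR) and 1.21 ± 0.24 in CRE (adjusted p = 0.0266). The CRE call was lost on leaving out any one of its 4 libraries (adjusted p from 0.156 to 0.224), and both calls were lost with BMDM number 3 in the fit, where 0% of all genes passed.

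The rise of Hist3h2a was smaller in value with the CRE label, by an interaction of -1.55 ± 0.34 on the log2 scale that did not pass (adjusted p = 0.0615, edgeR). Over all genes 3.66% passed the interaction (1.38% higher and 2.28% lower), and 0 members did, with 2 of 10 members and 20.3% of all genes at an unadjusted p under 0.05. Hist2h2be measured 2.5 and 2.04 FPKM in WT controls and 1.32 and 1.29 under DMXAA, a log2 change of -0.91 ± 0.30 that did not pass (adjusted p = 0.0521). In CRE it measured 2.09 and 1.92 FPKM in controls and 1.81 and 3 under DMXAA, with overlapping groups and a log2 change of 0.24 (adjusted p = 0.644).

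For Hist1h1c and Hist1h2bc, the WT-labelled BMDM libraries differed more by number than by treatment. Hist1h1c measured 23.3 and 10.1 FPKM in control and treated number 1 and 100 and 60.3 in number 2. Hist1h2bc measured 6.57 and 9.87 FPKM in number 1 and 90.6 and 70.1 in number 2. Number 2 was thus above number 1 for both genes whatever the treatment, and Hist1h1c was lower in the treated library of each number. Fibroblast markers summed 109 and 121 FPKM in number 2, against 9.55 to 14.1 in the other BMDM libraries numbered 1 and 2, and their part in the histone levels was not tested. The DMXAA change of Hist1h1c was -0.92 ± 0.88 (adjusted p = 0.460, edgeR). Without WT number 2, left out after its values were seen, the change was -1.30. That last fit had 1 WT library a group and took its spread from the CRE libraries, so no test is given. Those CRE replicates were among the most similar pairs of the series. Same-numbered control and DMXAA libraries deviated together in BMDM WT (correlation 0.685) but not in BMDM CRE (0.0368). With 2 libraries in a group, numbers 1 and 2 give the same correlation. The test above leaves out that likeness in WT. With same-numbered libraries of a label taken as pairs, Hist1h1c, Hist2h2be and Hist3h2a passed in BMDM WT.

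The summed member level under DMXAA was 322 ± 48.7 FPKM against 384 ± 32.7 in controls of WT-labelled BMDCs, a ratio of 0.839, and 317 ± 53.3 against 412 ± 65.6 in CRE, a ratio of 0.769. Without Hist1h1c the ratios were 1.01 and 1.0, so on the deposited FPKM scale the lower sums of treated BMDCs lay in Hist1h1c. A sum without Hist1h1c was not taken on counts scaled to the count total. In BMDMs the sums were 103 ± 85.8 against 135 ± 126 in WT and 71.0 ± 4.05 against 69.2 ± 2.11 in CRE, ratios of 0.761 and 1.03. The BMDM WT ratio ran from 0.311 to 2.25 when 1 of its libraries was left out, so it gives no direction. The deposited FPKM were scaled to a library size that was 1.03 to 1.16 times the count total in controls and 0.687 to 0.893 times in treated libraries, and counts scaled to the count total gave ratios of 0.636 and 0.585 in BMDCs. Scaling to that total would shift every log2 change by -0.38 in BMDC WT, -0.36 in BMDC CRE, -0.62 in BMDM WT and -0.25 in BMDM CRE.

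CRE-labelled and WT-labelled BMDCs gave no member past the threshold. Of 15 members, 0 passed in controls and 0 under DMXAA, as did 0% of all genes, and 0 members had an unadjusted p under 0.05 in either, against 99 and 108 genes. The groups did not overlap for 1 member in controls (3.97% of all genes) and 2 under DMXAA (2.61%). In BMDM controls 0 of 10 members passed, against 0.0432% of all genes, with 1 member (Hist1h2bq) and 793 genes at an unadjusted p under 0.05, and with groups that did not overlap for 4 members and 39.6% of all genes. Under DMXAA, 2 BMDM members were higher with the CRE label and 1 lower, where 9.26% of all genes were higher and 9.99% lower (19.2%). Of the higher ones, Hist1h2bq met the level filter only through CRE-labelled libraries. The lower one was Hist3h2a, with 4.65 and 4.88 FPKM in CRE against 11.4 and 9.81 in WT (log2 difference -1.10 ± 0.24, adjusted p = 0.0220, edgeR). Its control difference was 0.45 (adjusted p = 0.744).

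The members higher with the CRE label in treated BMDMs were Hist2h3c2 and Hist1h2bq, both with much shared sequence. As Hist1h2bq met the level filter in BMDMs only through CRE-labelled libraries, its direction is not a result, in controls or under DMXAA. Hist2h3c2 measured 5.96 and 6.86 FPKM in CRE and 3.29 and 1.56 in WT (1.46 ± 0.38, adjusted p = 0.0411, edgeR). Hist1h2bq measured 1.05 and 1.08 FPKM in CRE and 0.395 and 0.172 in WT (1.97 ± 0.47, adjusted p = 0.0316). The groups did not overlap for any of the 3 members, as for 62.8% of all genes. Each call was lost without either CRE DMXAA library (adjusted p from 0.138 to 0.200), those of Hist2h3c2 and Hist1h2bq also without WT DMXAA number 2 (0.0615 and 0.0668) and that of Hist3h2a without WT DMXAA number 1 (0.0657). The pair WT number 2 was also left out, a choice made after its values were seen. In controls, Hist1h2bc (1.38), Hist1h2bq (1.72), Hist1h4i (1.13) and Hist3h2a (0.77) were then higher in CRE on the log2 scale. That fit held 1 WT library a group, so no test or count of calls is given.

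S phase and cell division genes, whose transcripts carry a poly(A) tail, were followed beside the histone genes. Of 28 such genes, which include Mki67, Top2a, Pcna and the Mcm helicase subunits, 19 fell and 0 rose under DMXAA in BMDC WT, 15 fell and 1 rose in BMDC CRE, 22 fell and 0 rose in BMDM WT, and 9 fell and 0 rose in BMDM CRE. Of all genes tested, 15.2%, 11.4%, 20.7% and 2.72% fell in these groups, and 17%, 14%, 18.4% and 7.28% rose. The median log2 changes of the S phase genes were -0.98, -0.83, -1.93 and -1.08, beside histone medians of -0.35, -0.11, -0.45 and 0.11. In control BMDCs against BMDMs, 16 S phase genes were lower and 1 higher in WT, and 14 lower and 1 higher in CRE. Over all genes tested, 15.4% were lower and 13.1% higher in WT, and 13.4% lower and 14% higher in CRE. The called histone genes Hist1h1c and, in CRE, Hist1h4h were higher. The other called histone genes passed the level filter through BMDCs alone, so their direction was fixed and cannot be set against the S phase genes. Summed S phase FPKM was 173 to 318 in BMDCs and 578 to 783 in BMDMs numbered 1 and 2. The sum did not follow the changes of the single genes. In BMDM WT number 2 it was 578 FPKM in the control and 592 under DMXAA, although 22 genes fell in BMDM WT. The contrasts between these lists were not tested.

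**Figure D4:**
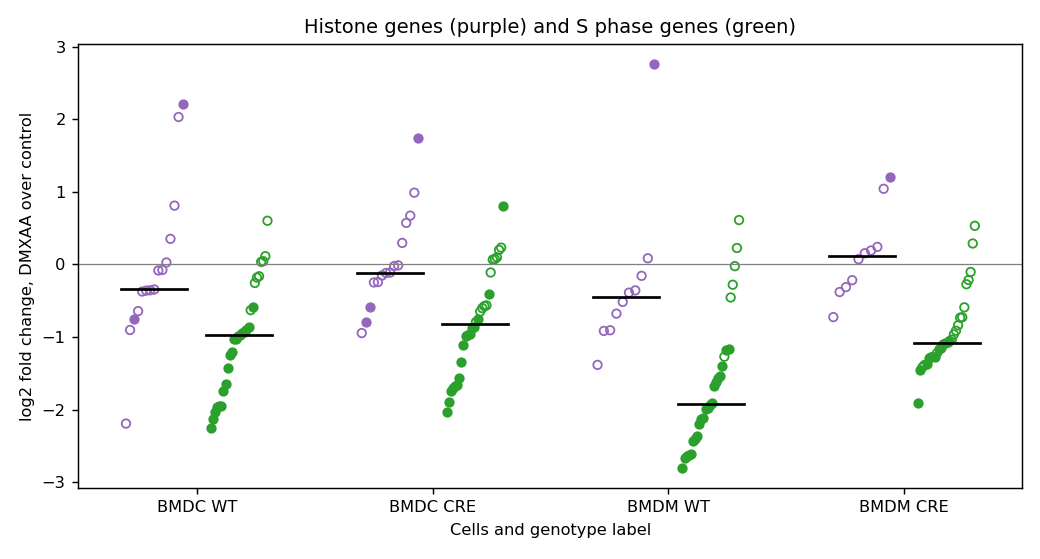
Log2 fold change of DMXAA over control (edgeR) for each tested histone gene (purple) and each of 28 S phase and cell division genes (green), by cell type and label, with filled points past an adjusted p of 0.05 and the median of each list as a line. The S phase medians lie between -0.83 and -1.93 and the histone medians between -0.45 and 0.11.

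Other genes of the histone pathway were described from lists. Under DMXAA, 17% of all genes tested rose and 15.2% fell in BMDC WT, and 14% and 11.4% in BMDC CRE. The shares were 18.4% and 20.7% in BMDM WT, and 7.28% and 2.72% in BMDM CRE. No list was tested against these shares. Among 12 tested genes of histone gene transcription and mRNA 3′ processing, 1 rose and 3 fell in BMDC WT, 1 and 2 in BMDC CRE, 1 and 4 in BMDM WT, and 1 and 0 in BMDM CRE. Slbp, the stem-loop binding protein, fell in BMDC WT by 0.45 on the log2 scale (adjusted p = 0.0296, edgeR) and in BMDM WT by 0.97 (adjusted p = 0.00608). Its changes with the CRE label were -0.39 in both cell types and did not pass (adjusted p = 0.0632 in BMDCs and 0.215 in BMDMs). Among 11 histone variants, most of them made from polyadenylated mRNAs, 2 rose and 2 fell in BMDC WT, and 2 and 3 in BMDC CRE. In BMDM WT 2 rose and 4 fell, and in BMDM CRE 1 and 1. H2afx, the variant marked at DNA breaks, fell in BMDC WT, BMDC CRE and BMDM WT. The falls were 1.75, 1.58 and 2.27 on the log2 scale (adjusted p = 0.00236, 0.00530 and 0.0184, edgeR). Of 6 histone chaperones, 1 rose and 2 fell in BMDC WT, 1 and 3 in BMDC CRE, 1 and 5 in BMDM WT, and 0 and 2 in BMDM CRE.

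In the BMDM libraries numbered 3, between 46 and 50 members had at least 1 read, against 20 to 45 in the other BMDMs and 31 to 49 in BMDCs. In all 4 of these libraries, 12 members were above all 8 other BMDM libraries and 5 were below. Among 12980 genes that reached 1 FPKM in at least 2 of the 12 BMDM libraries, 27.5% were above and 25.6% below in this way. Among the 17 members in that set 6 were above and 4 below, shares near those of all genes. That set counted number 3 itself, and the 6 above entered it only with number 3 counted. Of the 4 below, Hist2h2be and Hist3h2a entered only through the other BMDMs. The direction of these members is therefore not a result, and the shares of all genes carry the same limit. Hist1h3h measured 3.58, 3.20, 4.02 and 3.18 FPKM in WT control, WT DMXAA, CRE control and CRE DMXAA, and Hist1h2ao 2.81, 2.66, 3.15 and 2.47. These H3 and H2A genes did not exceed 0.272 and 1.19 FPKM in the other BMDMs. Hist3h2a measured 0.0384 to 0.229 FPKM and Hist2h2be 0.108 to 0.281, below all other BMDM libraries. Hist1h1c lay in a narrow range of 40.3 to 41.6 FPKM. Leukocyte markers summed 1.14 to 6.84 FPKM in these libraries, against 2453 to 3264 in the other BMDMs, 2 to 4 of the 10 macrophage markers were at 0, and the part of cell identity in these histone levels cannot be told apart from library number.

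**Figure D5:**
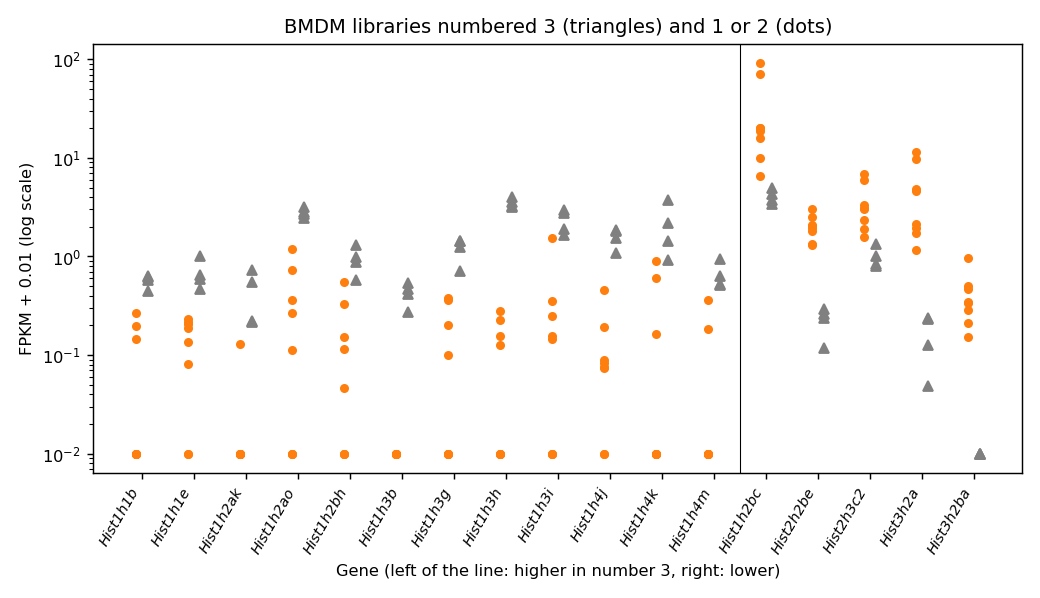
FPKM + 0.01 on a log axis of the 12 members that are above, and the 5 that are below, the other BMDM libraries in all 4 libraries numbered 3 (triangles), beside the 8 BMDM libraries numbered 1 and 2 (dots). Hist1h3h, Hist1h3i and Hist1h2ao lie above 1 FPKM in number 3, and Hist3h2a and Hist2h2be lie under 0.3 FPKM.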

How the data were processed

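Per the submitters' processing notes, reads passed through CASAVA 1.8 and fastp, were aligned with HISAT2 2.0.5 to GRCm38/mm10 and counted with featureCounts 1.5.0-p3, with DESeq2 1.20.0 for testing. The annotation release, strand setting and treatment of multi-mapped reads were not given in the sources used here. The spans of all 67 members equalled those of GENCODE M21. The deposited tables hold, for 24 libraries, raw read counts per gene and FPKM computed by the authors from gene lengths, in 48 columns that all matched a library (0 unmatched). The 60 columns of the authors' own comparisons hold fold changes and p-values and were not used.

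Counts of genes with at least 1 FPKM in 3 of 12 BMDC libraries, in 2 of 8 BMDM libraries (numbers 1 and 2) or, between cell types, in 2 of 20 were tested with edgeR 4.0.16 (R 4.3.3) quasi-likelihood F-tests on group means. TMM scaling was used, the groups of a fit shared 1 estimate of the spread, and p-values were two-sided and Benjamini-Hochberg adjusted over all genes tested, with a threshold of 0.05 (12 comparisons). The SE is that of the fitted log2 fold change. Of the 67 members, 15, 10 and 20 passed these filters. Levels are deposited FPKM. Without molecular identifiers, counts are not independent molecules. The procedure was tested on simulated data with 200 changed genes at the fitted spread. Most 4-fold changes and a minority of 2-fold changes were recovered, so absent calls do not show that members did not change. The changed genes were drawn only among genes with more counts than many tested members had. The recovery of 4-fold changes therefore does not apply to members with few counts. Stem-loops, hexamers, shared sequence and promoter letters were counted in Python 3.11.15 and figures drawn with matplotlib 3.10.9.

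Members and lists were chosen with earlier results of these data known. Named genes were the 3 with the highest mean FPKM in each class, up to 3 called rises and 3 called falls per comparison (mean of at least 1 FPKM in the higher group, no overlap), and genes at 0 everywhere. Other genes were named after their values were seen: Hist1h4a, Hist1h2ab, Hist1h3b and Hist1h3c as called with fewer counts, Hist1h2bq as it set BMDC CRE number 2 apart, the members leading BMDM number 3, and Slbp and H2afx. Hist1h2al and 2 other Hist genes with a pseudogene biotype were not counted as members. Same-numbered control and DMXAA BMDC libraries of a label deviated together (correlations of 0.417 to 0.692 in 6 BMDC pairs), whereas BMDC libraries across labels did not (-0.514 to 0.0325). Alternatives covered scaling by median of ratios, DESeq2 1.42.0, the filters, a threshold of 0.01, only the compared groups, replicate blocks, BMDM number 3, and each library left out.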

Additional observations from a re-analysis of the deposited data

Results flagged for a closer look

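Hist1h2bf, an H2B gene, had values that lay in opposite directions under DMXAA in CRE-labelled BMDCs and BMDMs, with no overlap between treated and control libraries in either. Groups did not overlap for 34.6% and 76.7% of all genes tested in these comparisons. In BMDCs it measured 0.212, 0.345 and 0.348 FPKM in controls and 0.466, 0.837 and 0.715 under DMXAA, a log2 ratio of the means of 1.16. In BMDMs numbered 1 and 2 it measured 0.364 and 0.328 FPKM in controls and 0.261 and 0.269 under DMXAA. These levels rest on 2 to 3 counts in BMDC controls, 3 to 6 under DMXAA, and 2 to 3 in all 4 BMDMs, so no direction can be read from them. The gene passed no filter on low values in BMDMs or BMDCs, and the difference between the cell types was not tested.

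In the BMDM libraries numbered 3, which the comparisons of the report leave out, 4 members were above 1 FPKM in every library and above all 4 control BMDM libraries numbered 1 and 2. Their lowest levels in number 3 were 2.47 FPKM for Hist1h2ao, 3.18 for Hist1h3h, 1.64 for Hist1h3i and 1.06 for Hist1h4j. The highest levels in those controls were 1.19, 0.272, 0.346 and 0.184 FPKM.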

How the results depend on the processing

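Few counts per gene and 2 or 3 libraries per group limit what could be detected. No called member changed direction under any alternative (0 reversed). Over all tested members and alternatives, 1690 values kept direction and call, 85 lost and 45 gained a call, and 186 of members without a call changed sign. Of the counts and sums, 153 stayed within their margin, 51 moved and 2 reversed. In the order BMDC WT, BMDC CRE, BMDM WT and BMDM CRE, the DMXAA comparisons called 2, 3, 1 and 1 members. Where no share of all genes stands beside a count below, the count shows only how calls moved with the setting. It does not show how the members stood to all genes. At an adjusted p under 0.01, BMDC WT, BMDC CRE and BMDM CRE called 0, 1 and 0, CRE against WT in treated BMDMs 0, and both cell type comparisons 1. With no filter on low values, BMDC WT, BMDC CRE and BMDM WT called 1, 1 and 2, CRE against WT in BMDM controls 2, the BMDM interaction 1, and the CRE cell type comparison 9. DESeq2 called 4 in BMDC WT, 1 in the BMDM interaction and 9 in the CRE cell type comparison. With only the compared groups in the fit, BMDC CRE called 0 (15.1% of all genes) and BMDM CRE 3 (57.8%). With BMDM number 3 in the fit, BMDM WT, BMDM CRE and CRE against WT under DMXAA called 0, as did 0% of all genes, and both cell type comparisons 1.

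The fit with the replicate number as a block called 2, 2, 1 and 1 members in the DMXAA comparisons, 3 in CRE against WT in treated BMDMs, 2 and 6 in the WT and CRE cell type comparisons, and 0 in the others. Labels give no shared animal or day, and numbers did not pair libraries across labels. With the replicate block within a label, BMDC WT called 4, BMDM WT 3 (Hist1h1c, Hist2h2be and Hist3h2a) and the BMDM interaction 1 (Hist3h2a), and the other counts did not change. Correlations over 0.1 in every pair were found in BMDCs but not in BMDMs, with 0.685 in BMDM WT and 0.0368 in BMDM CRE. With 2 libraries in a group, numbers 1 and 2 give the same correlation, and libraries share only a number. CRE against WT could not be fitted with that block.

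Without single libraries, the counts ranged from 0 to 3 in BMDC WT, 1 to 3 in BMDC CRE, 1 to 1 in BMDM WT and 0 to 0 in BMDM CRE. They ranged from 0 to 2 for CRE against WT in treated BMDMs, 0 to 1 for the BMDM interaction, 0 to 2 for the WT and 1 to 6 for the CRE cell type comparison, and stayed at 0 elsewhere. The summed FPKM ratios ranged from 0.766 to 0.879, 0.695 to 0.846, 0.311 to 2.25 and 0.985 to 1.07. Leaving out both BMDM WT libraries numbered 2, an alternative chosen after seeing the data, BMDM WT called 4 (63.7% of all genes), CRE against WT 4 in controls (22.8%) and 7 under DMXAA (53.8%), and the BMDM interaction 3 (47.4%). Counts scaled to the library total gave ratios of 0.636, 0.585 and 0.872 in BMDC WT, BMDC CRE and BMDM CRE. Summed FPKM without Hist1h1c gave ratios of 1.01, 1.0 and 1.2 in those groups, so that on the FPKM scale the sums of treated BMDCs were no longer lower. The causes of the other shifts were not tested.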
